A study of Rattus norvegicus with 6 samples.

Results

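The cyclins, the cyclin-dependent kinases (CDKs) and the CDK inhibitors were examined in rat hippocampal neurons in which another cyclin, cyclin Y (Ccny), had been raised or lowered. A gene was taken as a member when its symbol began with Ccn and a further letter, with Cdk and a digit, or with Cdkn. Ccny itself, its relative Ccnyl1, the kinases Cdk14, Cdk16, Cdk17 and Cdk18, and Cdk5 with its activators Cdk5r1 and Cdk5r2 were left out by name. Of 17066 listed genes, 57 matched the pattern, 8 of them carried a name left out, and 49 remained. Hippocampal neurons of Sprague-Dawley rats (embryonic day 18) were kept in primary culture and infected with lentivirus at 5 to 6 days in vitro, and RNA was taken at 14 days. The virus carried EGFP alone (EGFP, the control), wild-type cyclin Y fused to EGFP (CCNY-WT, overexpression) or a short hairpin RNA against Ccny together with EGFP (CCNY-shRNA, knockdown). Each of the 3 conditions had 2 libraries of poly(A) RNA, named replicate 1 and replicate 2. All cultures were infected and carried EGFP, and the control virus carried EGFP without a hairpin, so that the use of a hairpin as such and the loss of Ccny cannot be told apart. The labels do not say whether the 2 libraries of a condition came from separate cultures, so p-values measure the spread between these libraries, which may be technical.

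Cyclins are proteins that bind CDKs and switch them on, and many are made and destroyed at set points of the division cycle. D cyclins with CDK4 or CDK6 act in G1, E and A cyclins with CDK2 at the start of and during DNA synthesis, and B cyclins with CDK1 at mitosis. CDK inhibitors bind these kinases or their complexes and hold them back. Other pairs serve transcription and RNA processing in dividing and resting cells alike, among them cyclin H in the general transcription factor TFIIH, cyclin C with CDK8 or CDK19 in the Mediator complex, cyclin T with CDK9 in the elongation factor P-TEFb, and cyclin K with CDK12 or CDK13. Neurons have left the cycle, while glia and progenitors in a culture can still divide. By these known roles the members comprised 9 cell cycle cyclins, 7 transcription and splicing cyclins, 6 other cyclins, 4 cell cycle CDKs, 8 transcription and other CDKs, 7 genes with CDK inhibitor symbols and 8 genes of associated proteins. Ccnd3, Cdk7 and Cdkn2d were not analysed here.

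Expression was given as FPKM, that is, fragments scaled by transcript length and by the mapped fragments of the library, so that levels of different genes can be set side by side. The table holds no counts, and the depth relative to EGFP replicate 1, estimated from the steps between low values, ranged from 0.818 in CCNY-shRNA replicate 1 to 1.33 in CCNY-WT replicate 1. The targeted gene Ccny read 43.1 and 42.3 FPKM in EGFP, 108 and 109 FPKM in CCNY-WT, and 5.98 and 6.19 FPKM in CCNY-shRNA, as the labels state. Summed levels of 12 neuron markers lay between 5010 and 5150 FPKM in all libraries. Of these, 1, Gad2 of inhibitory neurons, was called lower in CCNY-shRNA (limma adjusted p = 0.0226). It read 129 and 129 FPKM there, against 170 and 173 FPKM in EGFP. Gad1, also of inhibitory neurons, read 183 and 187 FPKM in CCNY-shRNA, against 189 and 188 FPKM in EGFP (limma adjusted p = 0.813). The 9 listed astrocyte markers summed to 540 and 580 FPKM in EGFP, 573 and 567 FPKM in CCNY-WT, and 472 and 545 FPKM in CCNY-shRNA. The 10 listed oligodendrocyte lineage markers summed to 47.5 to 57.7 FPKM, with Sox10 at 0 but Mbp between 9.97 and 14 FPKM and Mog between 6.39 and 8.56 FPKM, the 8 listed vascular and meningeal markers to 63.9 to 75.7 FPKM, with the endothelial gene Cldn5 at 0 but Lum between 46 and 59.7 FPKM and Dcn between 13.2 and 17 FPKM, the 7 listed progenitor markers to 138 to 159 FPKM, and the 10 microglia markers to at most 1.5 FPKM with Aif1 and Cx3cr1 at 0. Col1a1, Pdgfrb and Pax6 of these lists were at most 0.271, 0.583 and 0.889 FPKM. The progenitor sum came largely from Vim, between 58.8 and 81.9 FPKM, and Dcx, between 48.2 and 53.9 FPKM, while Sox2 lay between 9.19 and 12.1 FPKM. By these sums, markers of neurons and astrocytes were highest and hardly any microglia marker was seen. The other lists were mixed, and whether oligodendrocyte lineage, meningeal or progenitor cells were present was not tested. In such bulk RNA, fewer cells of a type and less RNA per cell cannot be told apart, and the part that these cell types play in any result below was not tested.

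The most abundant members came from several classes, and of the cell cycle cyclins and CDKs Ccnd2 was among them. In EGFP, Ccni led with 128 ± 0.413 FPKM (mean ± SD, n = 2), followed by Ccnd2 with 117 ± 2.08, Ccng1 with 92.1 ± 5.68 and Ccnl2 with 70.1 ± 4.31 FPKM. Cyclin I and cyclin G1 are cyclins without an established place in the core division cycle, and cyclin L2 takes part in splicing. Below them, Cdk11b at 58.2 ± 0.744 and Cdkn1b at 56.3 ± 4.36 FPKM overlapped in their replicates, as did Cdk9 at 47.7 ± 0.905 and Ccnh at 47.2 ± 2.94 FPKM. By class, the median of the group means in EGFP was 20.5 FPKM for the transcription and splicing cyclins and 19.2 FPKM for the transcription and other CDKs. It was 2.39 FPKM for the cell cycle cyclins, 0.662 FPKM for the cell cycle CDKs and 0.532 FPKM for the inhibitors. The 9990 genes with a mean of at least 1 FPKM had a median of 17.7 FPKM. Of the 49 members, 23 had a mean of at least 10 FPKM in EGFP and 10 lay under 1 FPKM.

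**Figure D1:**
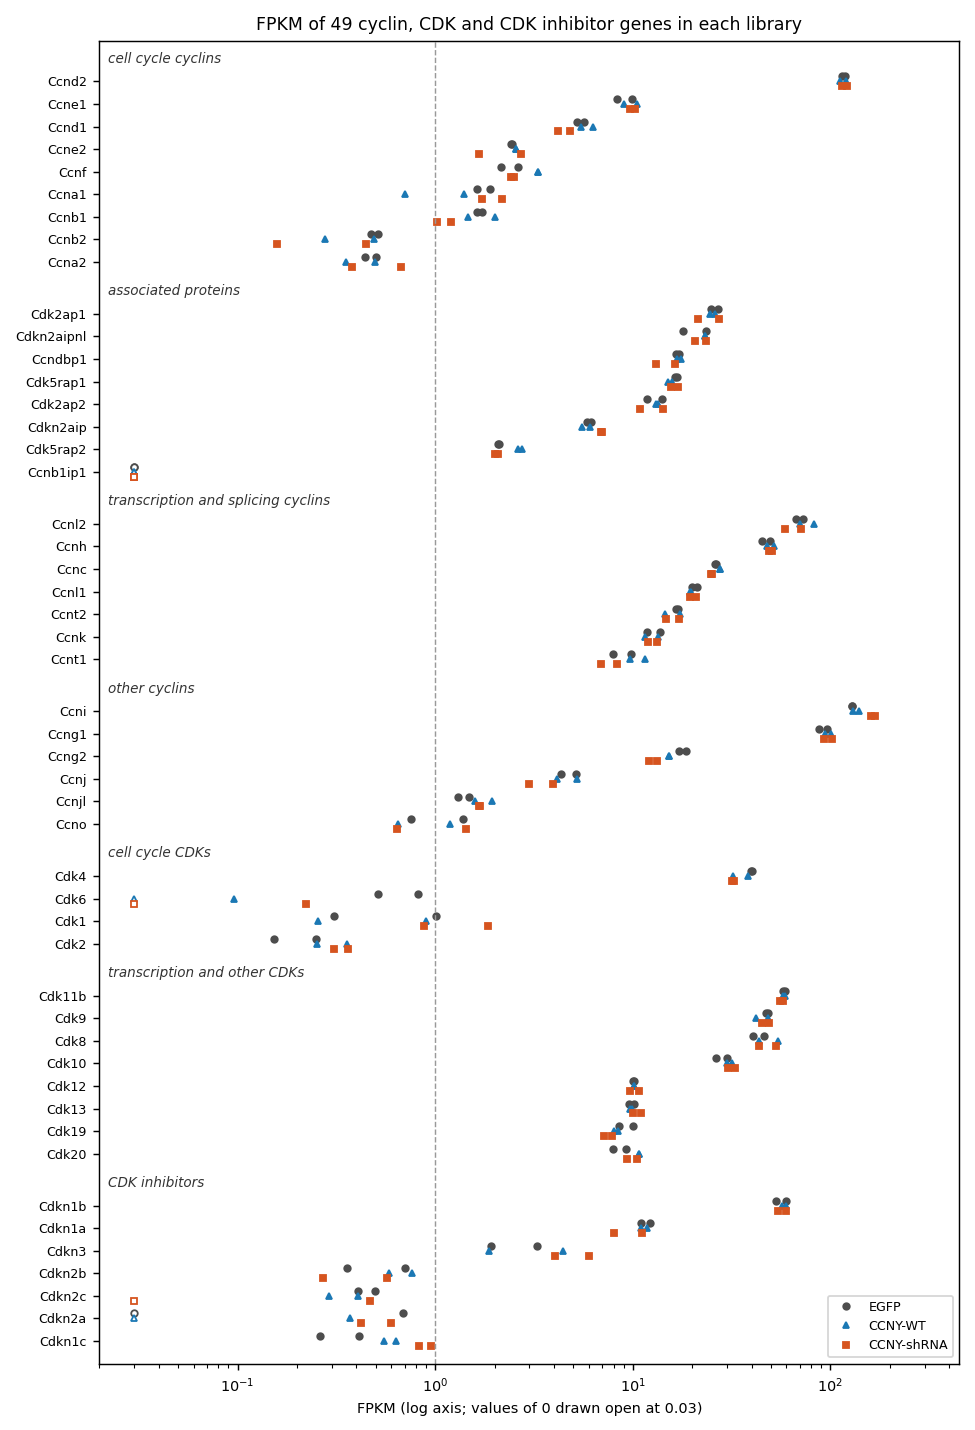
FPKM of each of the 49 members (rows, by class) in each of the 6 libraries on a log axis, with circles for EGFP, triangles for CCNY-WT and squares for CCNY-shRNA, the dashed line at 1 FPKM and values of 0 drawn open at 0.03. Transcription members lay between 6.92 and 82.8 FPKM in all conditions, whereas Ccna2, Ccnb2, Cdk2, Cdk6 and 4 of the inhibitor genes lay under 1 FPKM in all libraries.

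Within the cell cycle classes 1 partner of each kind stood out. Ccnd2, the D cyclin known for its high level in neural tissue, read 118 and 115 FPKM in EGFP, 120 and 112 FPKM in CCNY-WT, and 121 and 115 FPKM in CCNY-shRNA, and the 3 conditions overlapped. Ccnd1, its close relative, read 5.21 and 5.67 FPKM in EGFP, 6.3 and 5.49 FPKM in CCNY-WT, and 4.17 and 4.84 FPKM in CCNY-shRNA. Within each library, Ccnd2 was thus 19 to 29 times as abundant as Ccnd1. Ccne1, a cyclin of the G1 to S transition, read 8.28 and 9.96 FPKM in EGFP, 9.08 and 10.5 FPKM in CCNY-WT, and 9.64 and 10.3 FPKM in CCNY-shRNA, against 2.41 and 2.44, 2.56 and 2.58, and 2.72 and 1.66 FPKM for Ccne2. The ratio of Ccne1 to Ccne2 ranged from 3.43 to 6.22, and the highest ratio was that of CCNY-shRNA replicate 2. The annotated span of Ccne2 is overlapped by Ints8, and whether the authors' counting used strand is not given in the sources used here.

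The kinases of these cyclins were far apart in level. Cdk4, the kinase of the D cyclins, had 39.9 ± 0.394 FPKM in EGFP (n = 2), whereas Cdk6, which serves the same cyclins, had 0.665 ± 0.218 FPKM. Cdk2 read 0.25 and 0.153 FPKM in EGFP, 0.252 and 0.358 FPKM in CCNY-WT, and 0.306 and 0.362 FPKM in CCNY-shRNA. Cdk1 read 1.01 and 0.308 FPKM in EGFP, 0.255 and 0.902 FPKM in CCNY-WT, and 1.85 and 0.875 FPKM in CCNY-shRNA, and the 3 conditions overlapped. Cdk2 and Cdk1, the kinases of S phase and mitosis, were thus low in all conditions. Ccna2, the A cyclin of dividing somatic cells, read 0.44 and 0.504, 0.498 and 0.354, and 0.672 and 0.381 FPKM in EGFP, CCNY-WT and CCNY-shRNA. Ccnb2, a mitotic cyclin, read 0.516 and 0.473, 0.488 and 0.277, and 0.158 and 0.447 FPKM in the same order. In these low genes the FPKM values rise in steps, and the smallest whole numbers of fragments that fit were 4, 5, 6, 3, 5 and 4 for Ccna2, 4, 4, 5, 2, 1 and 4 for Ccnb2, and 6, 2, 2, 5, 9 and 6 for Cdk1, from EGFP replicate 1 to CCNY-shRNA replicate 2. Differences between conditions in these genes were not detectable at this depth.

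The proximal promoters of Cdk1 and Ccnb2 are shown because both genes belong to the mitotic programme and are low here. They hold the CHR element (TTTGAA or TTCGAA), a site known in promoters of late cell cycle genes, together with CCAAT boxes. Both were taken from RefSeq, build GRCr8, as the 250 bases before the gene's start, 5′ to 3′ on the strand of the gene, with CHR elements, CCAAT boxes and E2F-type sites in capitals. The first lies at chr20:19265043-19265292 on the plus strand and the second at chr8:79981659-79981908 on the minus strand.
Cdk1: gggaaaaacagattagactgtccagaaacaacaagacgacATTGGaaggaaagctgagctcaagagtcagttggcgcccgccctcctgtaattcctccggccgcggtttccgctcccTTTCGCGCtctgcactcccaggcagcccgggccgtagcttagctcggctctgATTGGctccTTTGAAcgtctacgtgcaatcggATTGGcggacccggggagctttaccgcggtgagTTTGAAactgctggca
Ccnb2: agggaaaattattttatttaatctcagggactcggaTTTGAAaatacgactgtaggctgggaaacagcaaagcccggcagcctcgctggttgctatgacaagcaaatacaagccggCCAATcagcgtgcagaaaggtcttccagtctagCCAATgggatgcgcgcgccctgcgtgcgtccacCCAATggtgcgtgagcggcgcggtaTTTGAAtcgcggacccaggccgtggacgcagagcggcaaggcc
Among the 41 members with a promoter entry, searched on both strands, 7 held a CHR element (17.1%, against 17.3% of all 27457 promoters), 22 a CCAAT box (53.7%, against 34.3%) and 1, that of Cdk1, an E2F-type site (2.44%, against 1.81%; TTTCGCGC, TTTGGCGC, TTTCCCGC or TTTGCCGC). CHR and CCAAT together stood in 5 members (12.2%, against 6.22% of all promoters), namely Ccnb2, Ccnf, Cdk1, Cdkn3 and Ccng1. The promoter of Ccnb1, the other mitotic B cyclin, at a mean of 1.67 FPKM in EGFP, held 2 CCAAT boxes but 0 CHR elements. These matches describe the letters in this window only.

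The inhibitor genes were also spread over a wide range. Cdkn1b, which encodes p27 and is known to be high in cells that have left the cycle, read 59.4 and 53.2 FPKM in EGFP, 59.6 and 56.9 FPKM in CCNY-WT, and 59.9 and 54.4 FPKM in CCNY-shRNA. Cdkn1a, which encodes the p53 target p21, read 11 and 12.3, 11 and 11.8, and 8.04 and 11.1 FPKM in the same order, and its lowest value was that of CCNY-shRNA replicate 1. Neither differed between conditions beyond the replicate spread, with limma log2 differences from EGFP of 0.02 (SE 0.0771) and -0.3 (SE 0.165) in CCNY-shRNA. The genes of the INK4 family, inhibitors of CDK4 and CDK6, were at the edge of detection. Cdkn2a read 0.688 and 0, 0 and 0.369, and 0.421 and 0.595 FPKM in EGFP, CCNY-WT and CCNY-shRNA. Cdkn2b read 0.705 and 0.359, 0.768 and 0.587, and 0.574 and 0.272 FPKM, and Cdkn2c 0.405 and 0.494, 0.408 and 0.289, and 0 and 0.468 FPKM. For Cdkn2a these values came from 2, 0, 0, 1, 1 and 2 fragments at the smallest fit.

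Differential expression was then tested for each condition against EGFP with limma, on log2 of FPKM floored to 1, over the 10188 genes that reached 1 FPKM in 2 or more libraries. Of the 49 members 40 passed this filter, while Ccna2, Ccnb1ip1, Ccnb2, Cdk2, Cdk6, Cdkn1c, Cdkn2a, Cdkn2b and Cdkn2c did not. Both comparisons used the same EGFP libraries and are therefore not independent. The Benjamini-Hochberg adjustment ran over all tested genes, and 0.05 was the threshold.

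In the knockdown, cyclin I was the member that passed this threshold. Ccni read 128 and 129 FPKM in EGFP, 139 and 130 FPKM in CCNY-WT, and 161 and 168 FPKM in CCNY-shRNA. Both knockdown libraries lay above the other 4. The log2 change from EGFP was 0.36 (SE 0.0552, limma adjusted p = 0.0437), a mean of 165 ± 4.6 against 128 ± 0.413 FPKM (n = 2 each). In CCNY-WT the log2 difference was 0.07 (SE 0.0552, limma adjusted p = 0.854). The knockdown thus had 1 member called higher, where 0.167% of all tested genes were called higher, and 0 members called lower, where 0.579% were called lower. The call was close to the threshold and was lost when any 1 of the 6 libraries was left out, with adjusted p between 0.0897 and 0.337 and log2 changes of 0.33 to 0.39, and over all 15 alternatives the adjusted p ranged from 0.0284 to 0.337. Leaving out a CCNY-WT library left the log2 change at 0.36, since those libraries enter this comparison only through the shared estimate of spread. The annotated span of Ccni is overlapped by Septin11, described below. Cyclin I is an atypical cyclin known for its presence in non-dividing tissues such as brain and muscle.

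The next 3 members in order of p were lower in the knockdown without passing the threshold. Ccng2, an unconventional cyclin associated with cell cycle arrest, read 18.5 and 17.2 FPKM in EGFP, 15.2 and 15.2 FPKM in CCNY-WT, and 13.2 and 12.1 FPKM in CCNY-shRNA. The 3 conditions did not overlap, and the knockdown was the lowest, with a log2 difference from EGFP of -0.5 (SE 0.097, limma adjusted p = 0.0663, and 0.0467 when an FPKM of at least 1 was required in all 6 libraries). Its relative Ccng1, a p53 target, read 96.1 and 88.1, 94.1 and 101, and 93.1 and 102 FPKM, and overlapped in all conditions. Within a library, Ccng1 was accordingly 5.18 and 5.12 times as abundant as Ccng2 in EGFP, 6.19 and 6.64 times in CCNY-WT, and 7.08 and 8.45 times in CCNY-shRNA. Cdk4 read 40.2 and 39.6 FPKM in EGFP, 32.1 and 38.3 FPKM in CCNY-WT, and 31.8 and 32.5 FPKM in CCNY-shRNA. Its log2 difference in the knockdown was -0.31 (SE 0.0897, limma adjusted p = 0.134), and the annotated span of Cdk4 is overlapped by Tspan31. Ccnb1, the main mitotic B cyclin, read 1.72 and 1.63, 1.46 and 2.02, and 1.02 and 1.2 FPKM, at 31, 32, 35, 34, 15 and 25 fragments. Both knockdown libraries were below the other 4, with a log2 difference of -0.6 (SE 0.233, limma adjusted p = 0.224). For no member was the share of all tested genes with libraries lying apart between conditions counted. Such separation, here and below, can therefore not be told from that of genes in general.

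**Figure D2:**
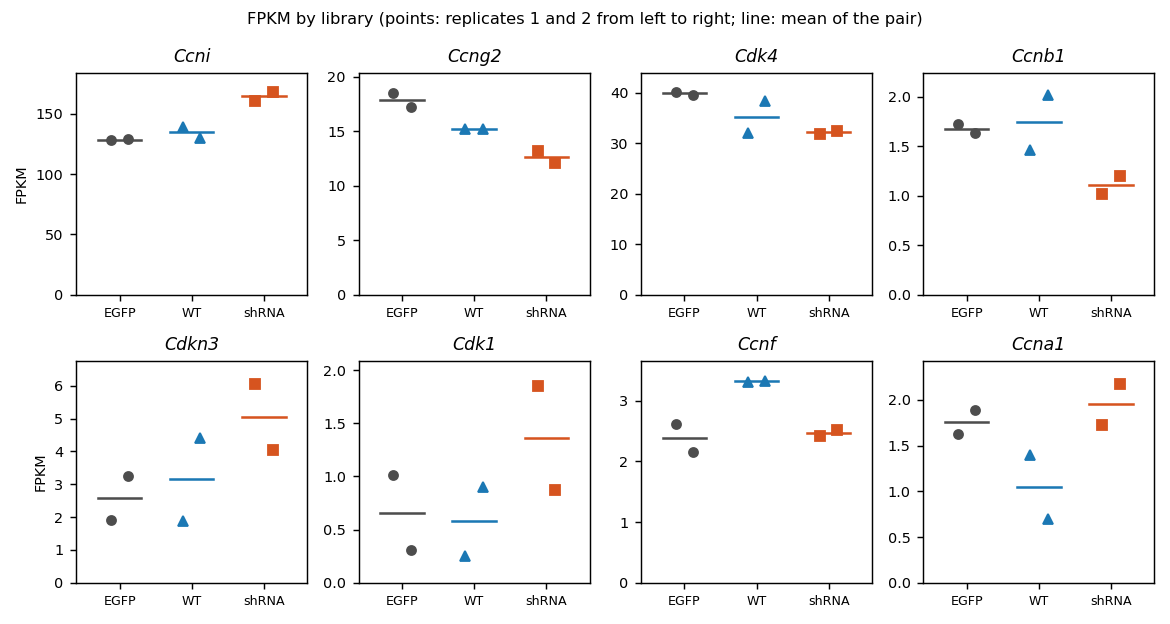
FPKM (vertical axes, from 0) of 8 members by condition (EGFP, CCNY-WT, CCNY-shRNA), with 1 point per library, replicate 1 on the left, and a line at the mean of the pair. Ccni stood at 161 and 168 FPKM in CCNY-shRNA above the other libraries, and Ccng2 and Ccnb1 were lowest there. The mean of Cdk4 was also lowest there, but its libraries overlapped those of CCNY-WT. The replicates of Cdk1 and Cdkn3 were far apart.

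Ccni and Ccng2 are near neighbours. In RefSeq both lie on chromosome 14, with Septin11 as the protein-coding gene that starts between them, and the span of Septin11 overlaps that of Ccni. The authors' use of strand in counting is not given, so whether fragments of Septin11 and Ccni were kept apart is not known. Septin11, listed under its older symbol Sept11, read 129 and 113 FPKM in EGFP, 128 and 122 FPKM in CCNY-WT, and 126 and 118 FPKM in CCNY-shRNA, a log2 difference of 0.01 in the knockdown (limma adjusted p = 0.968). The gene between them thus overlapped in all conditions, while Ccni was above and Ccng2 below its EGFP level. Their promoters, again the 250 bases before the start in GRCr8 on the strand of each gene, lie at chr14:15163845-15164094 on the plus strand and chr14:15097191-15097440 on the minus strand, with the motifs named above in capitals.
Ccni: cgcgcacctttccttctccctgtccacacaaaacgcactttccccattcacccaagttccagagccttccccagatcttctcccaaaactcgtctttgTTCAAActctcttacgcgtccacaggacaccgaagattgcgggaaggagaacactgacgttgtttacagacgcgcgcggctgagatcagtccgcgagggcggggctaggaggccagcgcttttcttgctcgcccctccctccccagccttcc
Ccng2: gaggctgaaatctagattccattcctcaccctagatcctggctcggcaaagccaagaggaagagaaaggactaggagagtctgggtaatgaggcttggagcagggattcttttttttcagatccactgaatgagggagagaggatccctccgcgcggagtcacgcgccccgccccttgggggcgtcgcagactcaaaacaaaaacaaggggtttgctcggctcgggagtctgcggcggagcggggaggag
That of Ccni held 1 CHR element, on the opposite strand, and that of Ccng2 held none of the 3 motifs.

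At an unadjusted p under 0.05, 1 member was higher in the knockdown (Ccni; 9.2% of all tested genes) and 4 were lower (Ccng2, Cdk4, Ccnb1 and Cdk19; 9.36%). Neither count stood clearly above the background. Cdk19, the paralog of the Mediator kinase Cdk8, read 9.98 and 8.57, 8.47 and 8.07, and 7.81 and 7.16 FPKM, a log2 difference of -0.31 in the knockdown (SE 0.132, limma adjusted p = 0.269), and its span is overlapped by Amd1. Past a log2 difference of 0.33, the fold threshold of the study for the knockdown, counted here with no test, 3 members were higher (5.52% of all tested genes) and 3 lower (7.59%). The higher members were Cdkn3, Cdk1 and Ccni, and the lower ones Ccnb1, Ccng2 and Ccnj.

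Cdkn3 and Cdk1 rested on few fragments. Cdkn3, a phosphatase that acts on CDKs, read 1.92 and 3.26 FPKM in EGFP, 1.87 and 4.42 FPKM in CCNY-WT, and 6.04 and 4.03 FPKM in CCNY-shRNA, at 7, 13, 9, 15, 18 and 17 fragments. The knockdown lay above EGFP but overlapped CCNY-WT, and the log2 difference from EGFP was 0.98 (SE 0.426, limma adjusted p = 0.273). Cdk1 had a log2 difference of 0.44 (SE 0.302, limma adjusted p = 0.478), which became -0.01 without CCNY-shRNA replicate 1. Ccnj, a cyclin of little known role in mammals, read 4.32 and 5.14, 5.2 and 4.14, and 2.98 and 3.95 FPKM, a log2 difference of -0.46 (SE 0.207, limma adjusted p = 0.287). None of these differences exceeded the spread between libraries by this test.

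In the overexpression, 0 of the 40 members passed the adjusted threshold in either direction, where limma called 0.00982% of all tested genes. At an unadjusted p under 0.05, 2 members were higher (3.83% of all tested genes) and 2 lower (3%). Past a log2 difference of 0.3, the study's fold threshold for this condition, again counted with no test, 4 members were higher (4.59%) and 1 lower (3.76%), and the 4 became 1 when 1 was added to the FPKM in place of the floor. The largest positive difference was that of Ccnf, a cyclin that serves as the F-box subunit of a ubiquitin ligase and binds no CDK. Ccnf read 2.62 and 2.16 FPKM in EGFP, 3.31 and 3.32 FPKM in CCNY-WT, and 2.42 and 2.51 FPKM in CCNY-shRNA, so that CCNY-WT stood above both other conditions, with a log2 difference of 0.48 (SE 0.18, limma adjusted p = 0.725). Cdk5rap2, a centrosome protein, had a similar pattern, with 2.11 and 2.07, 2.74 and 2.62, and 2.09 and 2.01 FPKM and a log2 difference of 0.36 (SE 0.174, limma adjusted p = 0.761). In both genes the CCNY-WT libraries were the highest of the 6. Cdk20, a kinase linked to primary cilia, read 7.98 and 9.22, 10.7 and 10.8, and 9.32 and 10.5 FPKM, a log2 difference of 0.33 (SE 0.127, limma adjusted p = 0.725). Ccnjl read 1.49 and 1.31, 1.94 and 1.6, and 1.68 and 1.66 FPKM, also at a log2 difference of 0.33 (SE 0.205, limma adjusted p = 0.805).

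On the lower side stood Ccna1, Ccng2 and Cdk4. Ccna1, the A cyclin known from the male germ line, read 1.63 and 1.89 FPKM in EGFP, 1.4 and 0.7 FPKM in CCNY-WT, and 1.73 and 2.17 FPKM in CCNY-shRNA. Its log2 difference in the overexpression was -0.57 (SE 0.244, limma adjusted p = 0.729), and the value of 0.7 FPKM in CCNY-WT replicate 2 came from 6 fragments at the smallest fit. Ccng2 had a log2 difference of -0.23 (SE 0.097, limma adjusted p = 0.729) and Cdk4 of -0.19 (SE 0.0897, limma adjusted p = 0.76). For Cdk4 the CCNY-WT replicates, at 32.1 and 38.3 FPKM, were farther apart than those of the other conditions. Ccng2 and Cdk4 had the same sign of difference under overexpression and under knockdown, both taken from the same EGFP libraries.

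**Figure D3:**
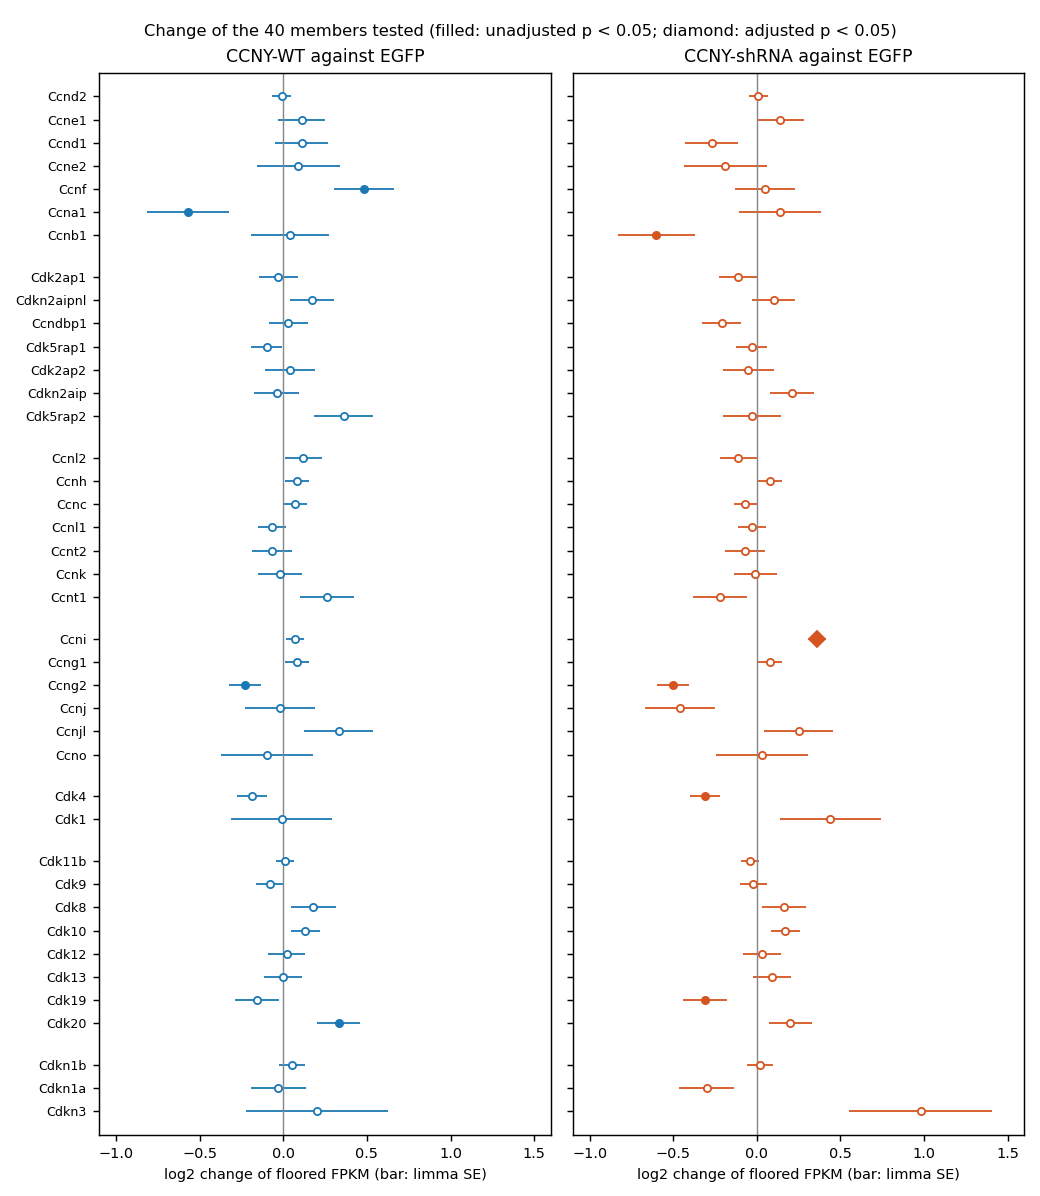
Log2 difference of floored FPKM from EGFP (horizontal axis, bars show the limma SE) for the 40 members tested, in CCNY-WT on the left and CCNY-shRNA on the right, ordered by class. Filled points have an unadjusted p under 0.05, and the diamond, Ccni in CCNY-shRNA at 0.36, is the 1 member past the adjusted threshold.

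The knockdown was also set against the overexpression, the contrast with the widest range of Ccny. Again 0 of the 40 members passed the adjusted threshold (0.216% of all tested genes did), and the smallest adjusted p was 0.117, that of Ccni with a log2 difference of 0.29 (SE 0.0552, limma). At an unadjusted p under 0.05, Ccni and Ccna1 were higher in the knockdown (2 members; 5.05% of all tested genes). Ccng2, Ccnt1, Ccnb1, Ccnd1 and Ccnf were lower (5 members; 7.12%). Ccnt1, a cyclin of P-TEFb, read 7.98 and 9.78 FPKM in EGFP, 9.74 and 11.5 FPKM in CCNY-WT, and 6.92 and 8.37 FPKM in CCNY-shRNA, a log2 difference of -0.48 between the latter conditions (SE 0.163, limma adjusted p = 0.32). For Ccnd1 it was -0.39 (SE 0.158, limma adjusted p = 0.388).

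Of the transcription and splicing cyclins and the transcription and other CDKs, Cdk19, Cdk20 and Ccnt1, given above, were farthest from EGFP. All 7 cyclins and all 8 kinases were tested, and in limma 0 passed the adjusted threshold in any of the 3 comparisons, with class medians between -0.068 and 0.07 in log2. Ccnh read 49.3 and 45.1, 51.7 and 47.8, and 48.7 and 50.7 FPKM in EGFP, CCNY-WT and CCNY-shRNA. Ccnc read 26.2 and 26.5, 27.7 and 27.6, and 25.3 and 24.9 FPKM, and the 3 conditions, although apart, differed from EGFP by only 0.07 and -0.07 in log2 (SE 0.0685). Its kinase Cdk8 read 46.3 and 40.4, 43.7 and 54.6, and 43.7 and 53.3 FPKM, with replicates farther apart than the conditions. Cdk8 was 4.63 and 4.71 times as abundant as Cdk19 in EGFP, 5.16 and 6.77 times in CCNY-WT, and 5.59 and 7.45 times in CCNY-shRNA.

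Cdk9, the kinase of P-TEFb, read 48.4 and 47.1, 42.1 and 48.3, and 45.2 and 49.2 FPKM in the same order of conditions, and overlapped throughout. Its second partner Ccnt2 read 16.5 and 16.9, 17.3 and 14.6, and 17.2 and 14.7 FPKM, and was 1.27 to 2.48 times as abundant as Ccnt1. Cdk12, which phosphorylates RNA polymerase II during elongation, read 10.2 and 9.99, 10.2 and 10.2, and 10.8 and 9.72 FPKM, and its cyclin Ccnk 13.7 and 11.8, 11.6 and 13.5, and 13.3 and 11.9 FPKM. Neither differed between conditions beyond its replicates. The remaining members of these classes (Ccnl1, Ccnl2, Cdk10, Cdk11b, Cdk13) had log2 differences from EGFP between -0.11 and 0.17. Among the associated proteins, 7 of 8 were tested and their log2 differences ranged from -0.1 to 0.36 in CCNY-WT and from -0.21 to 0.21 in CCNY-shRNA, while Ccnb1ip1, a meiotic gene, was listed at 0 in all libraries.

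Among the 9 members under the filter, Cdk6 lay below EGFP and Cdkn1c and Cdk2 above it in both other conditions, and Ccnb2 lay below it in the knockdown. Cdk6 read 0.511 and 0.819 FPKM in EGFP, 0.0965 and 0 FPKM in CCNY-WT, and 0 and 0.221 FPKM in CCNY-shRNA. Both infected conditions with altered Ccny were below EGFP, but the values rested on 4 and 7, 1 and 0, and 0 and 2 fragments at the smallest fit. In a fit of log2(FPKM + 0.1) without a filter, added after the data were seen, its limma adjusted p was 0.824 in CCNY-WT and 0.241 in CCNY-shRNA. Cdkn1c, which encodes p57, read 0.414 and 0.262, 0.635 and 0.554, and 0.831 and 0.955 FPKM, and its conditions did not overlap. In the same fit its log2 difference was 0.69 in CCNY-WT (SE 0.334, limma adjusted p = 0.848) and 1.2 in CCNY-shRNA (SE 0.334, limma adjusted p = 0.196). Cdk2, at the values given above, rested on 3, 2, 4, 4, 3 and 5 fragments at the smallest fit, with log2 differences of 0.43 in CCNY-WT (SE 0.375, limma adjusted p = 0.876) and 0.54 in CCNY-shRNA (SE 0.375, limma adjusted p = 0.557). For Ccnb2 in CCNY-shRNA the difference was -0.66 (SE 0.477, limma adjusted p = 0.569). These members were picked out after their values were seen. The share of all genes lying apart from EGFP in this way was not counted. Their separation can therefore not be told from that of genes in general.

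Over all 40 tested members, the median log2 difference from EGFP was 0.035 in CCNY-WT and -0.014 in CCNY-shRNA, against 0.004 and 0 over all tested genes. The median size of the difference, regardless of sign, was 0.083 and 0.124, against 0.089 and 0.126 over all tested genes. Replicates of 1 condition differed by a median of 0.123, 0.0945 and 0.147 in log2 for the members in EGFP, CCNY-WT and CCNY-shRNA. The members were thus about as far from EGFP as tested genes in general.

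Other genes of the same pathways were taken from lists written from general knowledge. These lists were chosen with earlier results of these data known, so their counts are not independent of these data. Of 39 core cell cycle regulators outside the members, 33 were listed and 28 tested, with a median log2 difference of 0.09 in CCNY-WT and 0.14 in CCNY-shRNA. In limma 0 passed the adjusted threshold in either condition, while at an unadjusted p under 0.05 there were 8 higher and 0 lower in the knockdown (9.2% and 9.36% of all tested genes) and 1 higher and 0 lower in the overexpression (3.83% and 3%). The CDK-activating phosphatases Cdc25a, Cdc25b and Cdc25c were among the 8, with log2 differences of 0.73 (SE 0.208, limma adjusted p = 0.132), 0.5 (SE 0.152, adjusted p = 0.15) and 0.78 (SE 0.327, adjusted p = 0.256). Cdc25c read 1.03 and 1.46 FPKM in EGFP, and 2.87 and 1.55 FPKM in CCNY-shRNA. E2f3, Tfdp1, Skp1, Cdc37 and Lin37 were the rest of the 8. Genes named from these lists were picked out after their values were seen. Lin37, a subunit of the DREAM complex that represses cell cycle genes in resting cells, read 10.2 and 10.1 FPKM in EGFP, 13.4 and 14.9 FPKM in CCNY-WT, and 13.5 and 14.2 FPKM in CCNY-shRNA, a log2 difference of 0.48 (SE 0.106, limma adjusted p = 0.507) and 0.45 (SE 0.106, adjusted p = 0.0908). Of 30 partners of the transcriptional CDKs, 24 were tested, with medians of 0.02 and -0.04, and 0 passed the adjusted threshold in either condition. At an unadjusted p under 0.05, 1 was higher and 3 lower in the knockdown, and 0 higher and 2 lower in the overexpression, against the same shares of all tested genes. Larp7, a component of the complex that sequesters P-TEFb, was among the lower ones in both conditions. It read 29.9 and 21 FPKM in EGFP, 19.3 and 18.7 FPKM in CCNY-WT, and 14.2 and 16.5 FPKM in CCNY-shRNA. The log2 difference was -0.71 in the knockdown (SE 0.161, limma adjusted p = 0.0853) and -0.4 in the overexpression (SE 0.161, adjusted p = 0.725). Its EGFP replicates, shared by both comparisons, were farther apart than those of the other conditions. Of 40 mitotic and proliferation genes, 37 were listed and 17 tested, with medians of -0.12 and -0.02, and 0 passed the adjusted threshold in either condition. At an unadjusted p under 0.05, 1 was higher and 1 lower in the knockdown, and 1 higher and 0 lower in the overexpression, against the same shares.

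**Figure D4:**
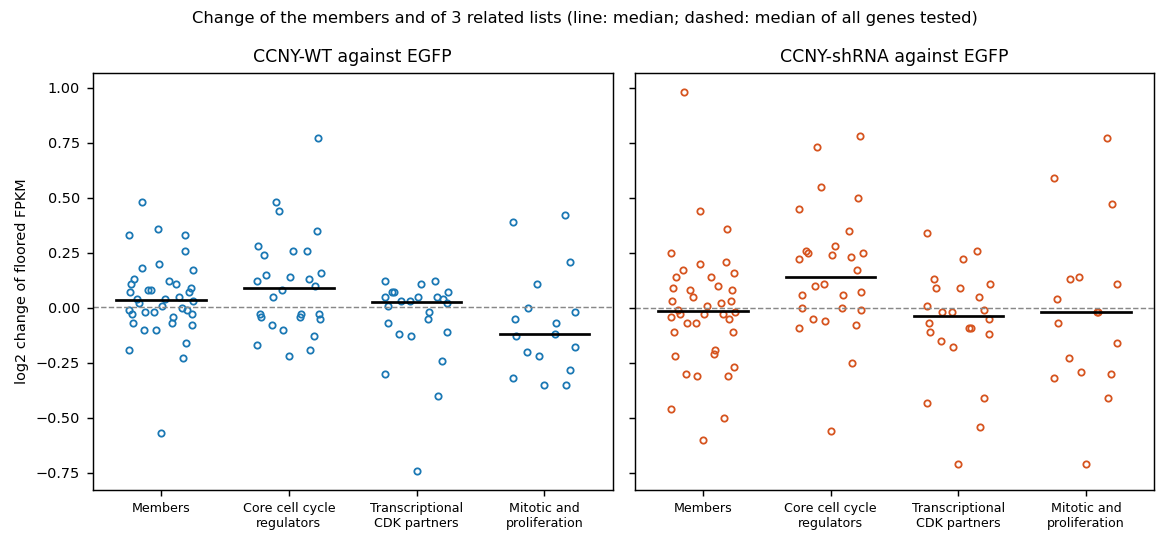
Log2 difference of floored FPKM from EGFP (vertical axis) for the 40 tested members and for the tested genes of 3 related lists, in CCNY-WT on the left and CCNY-shRNA on the right, with 1 circle per gene, a black line at the median of the list and a dashed line at the median of all tested genes. The medians lay between -0.12 and 0.14, and the core cell cycle regulators had the highest median in both conditions.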

How the data were processed

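RNA-seq was measured in 6 libraries, 2 for each condition. The authors aligned paired-end reads to the rat build rn4 with TopHat2 (Bowtie2 2.1.0, SAMtools 0.1.19) and deposited 1 FPKM value per gene and library from Cufflinks 2.2.1, with the tool versions per the labels. The annotation, scaling between libraries and use of strand are not given in the sources used here, and the kit is described as stranded in the labels but not in the methods.

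Values under 1 FPKM were set to 1 before taking log2, so that differences of low genes are understated. limma 3.58.1 (R 4.3.3; lmFit, contrasts.fit, eBayes with a trend) was fitted over all 6 libraries to the 10188 genes reaching 1 FPKM in 2 or more libraries, with Benjamini-Hochberg adjustment. In simulated data for the comparison of CCNY-shRNA with EGFP over 10188 genes, 98.5% of 200 genes changed by a log2 value of 1 were recovered, with 10 false calls. The noise was normal, and the changed genes were drawn only from those with a mean log2 of floored FPKM above 2. Smaller changes and changes of lower genes were not simulated, so this share does not measure how well they would be detected among the members.

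Relative depth and fragments were estimated from the steps of low values. Whole numbers within a tolerance of 0.05 were found for 97.3% of 1921 low genes. They are the smallest that fit, and the true numbers can be larger. They cover counting error only, and the depth itself is unknown.

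The members and lists were chosen with earlier results of these data known. Full values are given for the members past an adjusted p of 0.05, the 3 largest differences in each direction from EGFP, those at an unadjusted p under 0.05 against EGFP, and a fixed core of cell cycle and transcription members. All 49 members matched RefSeq by symbol and 41 had a promoter entry (GRCr8), of which 250 bases were used. Gene positions of GRCr8 were used only for which genes neighbour or overlap each other, and 10 members were overlapped by another protein-coding gene. Alternatives covered the offset, the filter, the scaling, the trend, the libraries fitted, a replicate block, the fold threshold and leaving out each library. Summaries were made in Python 3.11.15 (pandas 2.3.3, numpy 2.4.6), with figures from matplotlib 3.10.9. The authors' cuffdiff calls were not used here.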

Additional observations from a re-analysis of the deposited data

How the results depend on the processing

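The number of members past the adjusted threshold in the knockdown depended on the processing. The 1 member called higher, Ccni, became 0 without a filter, with quantile normalization, without a trend, with only the 4 libraries compared and when leaving out any library (0 to 0), and its log2 change stayed between 0.32 and 0.39. The adjusted p of Ccni was 0.14, 0.0508, 0.181 and 0.187 under the first 4 of these. With the replicate block the count was also 0, with an adjusted p of 0.0624. The same-numbered libraries correlated by only 0.0377 to 0.0538 in their deviations from the group means, so the numbers were not taken to pair them. The 0 members called lower became 1, Ccng2, with the stricter filter. In CCNY-WT against EGFP and in CCNY-shRNA against CCNY-WT the counts past the adjusted threshold were 0 under all alternatives run. The log2 difference of Cdk1 in the knockdown turned from 0.44 to -0.01 without CCNY-shRNA replicate 1 (leave-one-out range -0.01 to 0.88).

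The median of the tested members in CCNY-WT, 0.035, was 0 without a filter, 0.045 with the stricter filter and 0.024 with quantile normalization, and ranged from 0.016 to 0.035 when leaving out a library. In CCNY-shRNA the median of -0.014 ranged from -0.042 to 0.016 when leaving out a library. Between CCNY-shRNA and CCNY-WT the median of -0.036 was -0.001 without a filter and -0.075 with the stricter filter, with a leave-one-out range of -0.074 to -0.024. The 4 members past the fold threshold upward in CCNY-WT became 1 with log2(FPKM + 1) and 0 at a threshold of 0.5. They ranged from 4 to 6 when leaving out 1 of the 4 libraries compared, and the 1 downward ranged from 1 to 3. In CCNY-shRNA the 3 upward became 1 at a threshold of 0.5, and ranged from 2 to 4 when leaving out 1 of the 4 libraries compared. The 3 downward ranged from 4 to 6 in the same way, so that each such omission raised that count. The cause of these shifts was not tested. With 2 libraries a condition and members at a few fragments, small changes of the low members were not detectable.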
